A study of Drosophila melanogaster with 21 samples.

Results

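Heads of control flies that had been fasted for 16 hours were compared with heads of control flies fed ad libitum, across all 17559 genes of the authors' deposited table of control fasting. No gene was dropped before this comparison, but the genes and lists named below were chosen with earlier results of these data known. Counts of called members in those lists are therefore not free of selection. Adjusted p-values were present for 9361 genes, and 205 of them (2.19%) were called higher and 154 (1.65%) lower in fasted heads, 359 (3.84%) in all. A call is an adjusted p under 0.05 in the deposited DESeq2 result. Of the other genes, 4085 were listed with a base mean of 0 and 4113 had a p-value but were left out of the authors' adjustment. The lowest base mean with an adjusted p was 4.78.

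The fasted group is 2 libraries and the fed group 3 libraries, 5 of the 21 samples of the series. All 5 are from adults 3 to 5 days old of the genotype w1118, which takes its name from an allele of the eye-pigment transporter gene white, raised on standard food, and no other allele or agent is given. Total RNA was selected for poly(A) and, per the labels' protocols, made into libraries with a kit of the NEBNext Ultra series. The labels give neither the sex of the flies nor how many heads went into a library, nor whether libraries stem from separate cultures, so the p-values reflect variation among these libraries that may be technical. The third fed library is placed by the labels in a sample set of its own, without a fasted control library, so set and feeding state cannot be told apart for it. Heads of Crtc knockout flies, 2 fasted and 3 fed libraries of the same age, are used below only to show where the control response differs. Those flies lack Crtc, a coactivator of the transcription factor CREB, and whether they share the stock background is not stated.

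A fly head holds the brain and the compound eyes, but also a layer of fat body, muscle, blood cells and cuticle. When food is withdrawn, the fat body and other tissues release stored triglyceride and glycogen under adipokinetic hormone, while signalling by insulin-like peptides declines and the transcription factor FOXO becomes active. Fatty acids are then burned in mitochondria and peroxisomes, and amino acids feed gluconeogenesis. Serine and glycine also supply the folate cycle, whose carbon units, with glycine itself, build the purine ring.

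The deposited table holds no value per library. Each gene has a base mean, which is its normalized count averaged over the libraries of the comparison, and a log2 fold of fasted over fed with a standard error (SE). The folds are shrunken towards 0, so the size of a change is understated, most of all at low counts. To show the data on the count scale, the level of each group was computed from the base mean and the fold, taking 2 fasted and 3 fed libraries. These implied levels are in normalized counts, carry no error of their own and are not corrected for transcript length. They do not allow a statement on whether single libraries overlapped.

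The tissue was checked against markers. The photoreceptor list had 13 of its 14 genes tested, and ninaE, the main rhodopsin gene, had the base mean 116783 in the authors' deposited table, while ninaA, a chaperone of rhodopsin, was listed at 0. All 12 neuron markers counted here were tested. None of 6 markers of reproductive tissue was tested, and 3 of them were listed at 0. Of 7 gut and salivary gland markers, which stand for other tissue, the amylase genes Amy-p and Amy-d were tested and the other 5 were not. Both amylase genes were called higher in fasted heads, as given below. Some markers first planned for the neuron, reproductive and gut lists are not in these counts. The targeted gene of the knockout, Crtc, had a fold of 0.02 ± 0.19 in fasted control heads and averaged 339.7 normalized counts in the authors' deposited table. CrebB, Sik2 and Sik3, which encode CREB and kinases that act on Crtc, had folds of 0.14, -0.11 and -0.08 in the same authors' deposited table. In the Crtc and cAMP pathway, 0 of 21 tested members were called by DESeq2 (1 at an unadjusted p under 0.05). For a list of that size, 0 calls are not far from the 3.84% called of all tested genes.

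The median fold over all tested genes was -0.01. The called genes took up 4.73% (higher) and 1.36% (lower) of the counts implied for fasted heads, against 2.35% and 2.61% of those implied for fed heads. Changes of at least 1 on the log2 scale made up 85 of the higher and 60 of the lower calls, and changes of at least 2 made up 19 and 2. The median size of a called change was 0.90 in both directions. Calls were rarer where counts were low: 1.17% of 2569 genes with a base mean under 50 were called, against 3.53% of 3113 genes from 50 to 200, 6.08% of 2797 genes from 200 to 1000 and 5.56% of 882 genes above that. The median SE fell over the same classes, being 0.274, 0.225, 0.181 and 0.168. Just inside the threshold lay CG6415 with an adjusted p of 0.0478 and wrapper with 0.0483, and just outside it bigmax with 0.0506 and CG7888 with 0.0512, in the authors' deposited table.

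**Figure D1:**
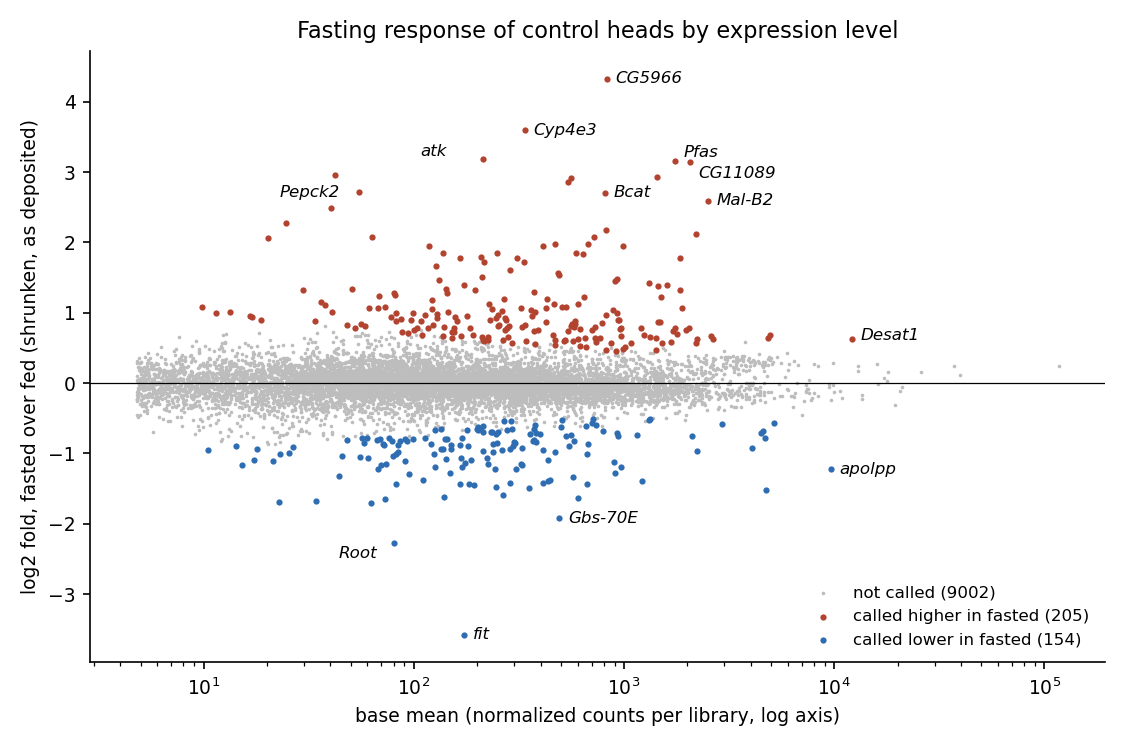
Log2 fold of fasted over fed (vertical axis, shrunken, as deposited) against base mean in normalized counts (horizontal log axis) for the 9361 tested genes of control heads, with 205 genes called higher in red, 154 called lower in blue and 9002 not called in grey. The highest folds reach 4.33 and the lowest -3.58, and calls need a larger fold where counts are low.

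Among the genes that break down and store fat, calls went in both directions. Of 11 tested members of the list of lipases, lipid droplet proteins and the adipokinetic hormone receptor, 5 were called higher, 2 lower and 4 not, with a median fold of 0.367. The lipase gene CG5966 (chromosome X, 5988791 to 5992640, plus strand, in BDGP6.54) had an implied level of 1921 normalized counts in fasted heads, against 95.5 in fed heads. That is a fold of 4.33 ± 0.18 in the authors' deposited table (adjusted p = 4.72e-128), the highest of all 9361 tested genes. The triglyceride lipase gene bmm, the fly's ATGL, was at 1331 in fasted heads and 314 in fed heads, a fold of 2.08 ± 0.16 in the authors' deposited table (adjusted p = 9.49e-34). Lip4 rose by 1.12 ± 0.19 and mag, an acid lipase gene, by 2.96 ± 0.28 in the authors' deposited table. As mag overlaps atk on the opposite strand over 1592 bases, its fold may share reads with atk. CG18302, a lipase gene next to Lip4 on chromosome 2L, went the other way at -1.07 ± 0.22 in the authors' deposited table (adjusted p = 8.47e-05).

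The perilipins coat lipid droplets and govern the access of lipases to them. Lsd-2 was at 1997 normalized counts in fasted heads and 1094 in fed heads with a rise of 0.87 ± 0.16 in the authors' deposited table (adjusted p = 2.70e-06). Lsd-1 was at 205 in fasted heads and 369 in fed heads and fell, at -0.85 ± 0.24 in the authors' deposited table (adjusted p = 0.0115). The neighbour of Lsd-2, dob, which encodes another lipase, rose by 0.82 ± 0.22 in the authors' deposited table. AkhR and the lipase gene Hsl had folds of -0.26 ± 0.21 and 0.11 ± 0.18 and were not called in the authors' deposited table. Akh itself had a base mean of 0.43 there and was not tested. A secreted phospholipase A2 gene, GIIIspla2, had implied levels of 1124 in fasted heads and 155 in fed heads with a rise of 2.86 ± 0.19 in the authors' deposited table. The adjacent CG15337, 705 bases away, rose by 2.06 ± 0.28 in that authors' deposited table.

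In fatty acid oxidation, the called genes all rose, and as many members were not called. Of 24 tested, 12 were called higher, 12 not and 0 lower (0 lower also at an unadjusted p under 0.05), with a median fold of 0.634, and 18 of 24 folds were above 0. Every called member lay between 0.61 (Acadvl) and 1.34 (Mcad) in the authors' deposited table. The carnitine palmitoyltransferase gene whd, which admits fatty acids to mitochondria, was at 973 normalized counts in fasted heads and 561 in fed heads, a fold of 0.80 ± 0.17 in the authors' deposited table (adjusted p = 0.000233). Both subunits of the mitochondrial trifunctional protein rose, Mtpalpha by 0.77 ± 0.19 and Mtpbeta by 0.87 ± 0.20 in the authors' deposited table. The thiolase gene yip2 rose by 1.22 ± 0.17 and the peroxisomal acyltransferase gene CROT by 0.95 ± 0.20 in the authors' deposited table. Hmgs, whose product condenses acetyl-CoA into HMG-CoA, had a fold of -0.28 ± 0.18 and was not called in the authors' deposited table.

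Of 16 tested lipid synthesis genes, 3 were called higher and 0 lower, a called share of 18.8% against 3.84% of all tested genes. At an unadjusted p under 0.05, 5 were higher and 0 lower, and the median fold of the list was 0.159. At an adjusted p under 0.01 none of the 3 was called. The desaturase gene Desat1 carried the largest rise in counts of any called gene, with an implied level of 15380 in fasted heads against 9921 in fed heads. Its fold was 0.63 ± 0.18 in the authors' deposited table (adjusted p = 0.0179). Dgat2, which makes triglyceride, rose by 1.01 ± 0.28 from a base mean of 13.3, and Idh, a source of NADPH, by 0.47 ± 0.15 in the authors' deposited table. ACC, which makes malonyl-CoA for fatty acid synthesis, had a fold of 0.06 ± 0.15 and was not called in the authors' deposited table. One of 8 tested lipid phosphate phosphatase genes was called: CG11425 rose by 1.85 ± 0.22 in the authors' deposited table.

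Genes of sugar metabolism were called in both directions. Gluconeogenesis and shuttle enzymes had 5 of 9 tested members higher, 1 lower and a median fold of 0.52. Pepck2, which draws oxaloacetate towards glucose, had implied levels of 111 in fasted heads and 17.0 in fed heads, a fold of 2.72 ± 0.26 in the authors' deposited table (adjusted p = 2.87e-22). Its paralogue Pepck1 was listed at 0. The fructose bisphosphatase gene fbp was at 804 in fasted heads and 278 in fed heads with a rise of 1.53 ± 0.19 in the authors' deposited table. The transaminase genes Got1 and Got2 rose by 0.52 and 0.79, and the malate dehydrogenase gene Mdh1 by 0.75 in the authors' deposited table. Gpdh1, which links glycolysis to glycerol phosphate, fell at -0.75 ± 0.14 in the authors' deposited table (adjusted p = 1.45e-05).

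Glycolysis had 2 of 14 tested members higher and 0 lower, with a median fold of -0.03 and 1 member with a fold below 0 at an unadjusted p under 0.05. The 2 were Hex-C, a hexokinase gene, at 0.82 ± 0.19 and Ldh, which makes lactate, at 0.99 ± 0.24 in the authors' deposited table. Trehalose and glycogen genes had 1 of 13 higher and 2 lower, with a median fold of -0.266. The trehalase gene Treh rose by 0.57 ± 0.14 in the authors' deposited table. Gbs-70E, which targets a phosphatase to glycogen, was at 184 normalized counts in fasted heads against 695 in fed heads, a fold of -1.92 ± 0.20 in the authors' deposited table (adjusted p = 7.84e-20). The glucosidase gene tobi fell at -1.29 ± 0.22 in the authors' deposited table (adjusted p = 8.26e-07).

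Genes of starch and maltose digestion were among the higher calls. Of 6 tested amylase and maltase genes, 3 rose and 0 fell (0 below 0 at an unadjusted p under 0.05), with a median fold of 0.611, and 7 more members were not tested, 3 of them listed at 0. The maltase gene Mal-B2 was at 5002 normalized counts in fasted heads and 829 in fed heads, a fold of 2.59 ± 0.18 in the authors' deposited table (adjusted p = 3.31e-42). Amy-p was at 1530 in fasted heads and 339 in fed heads, a fold of 2.17 ± 0.20 in the authors' deposited table (adjusted p = 6.41e-24). The adjacent paralogue Amy-d rose by 1.07 ± 0.17 in the authors' deposited table, but reads from near-identical copies can be split between them. Amy-p and Amy-d are also the 2 tested gut and salivary gland markers. What part other tissue had in their folds was not tested.

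**Figure D2:**
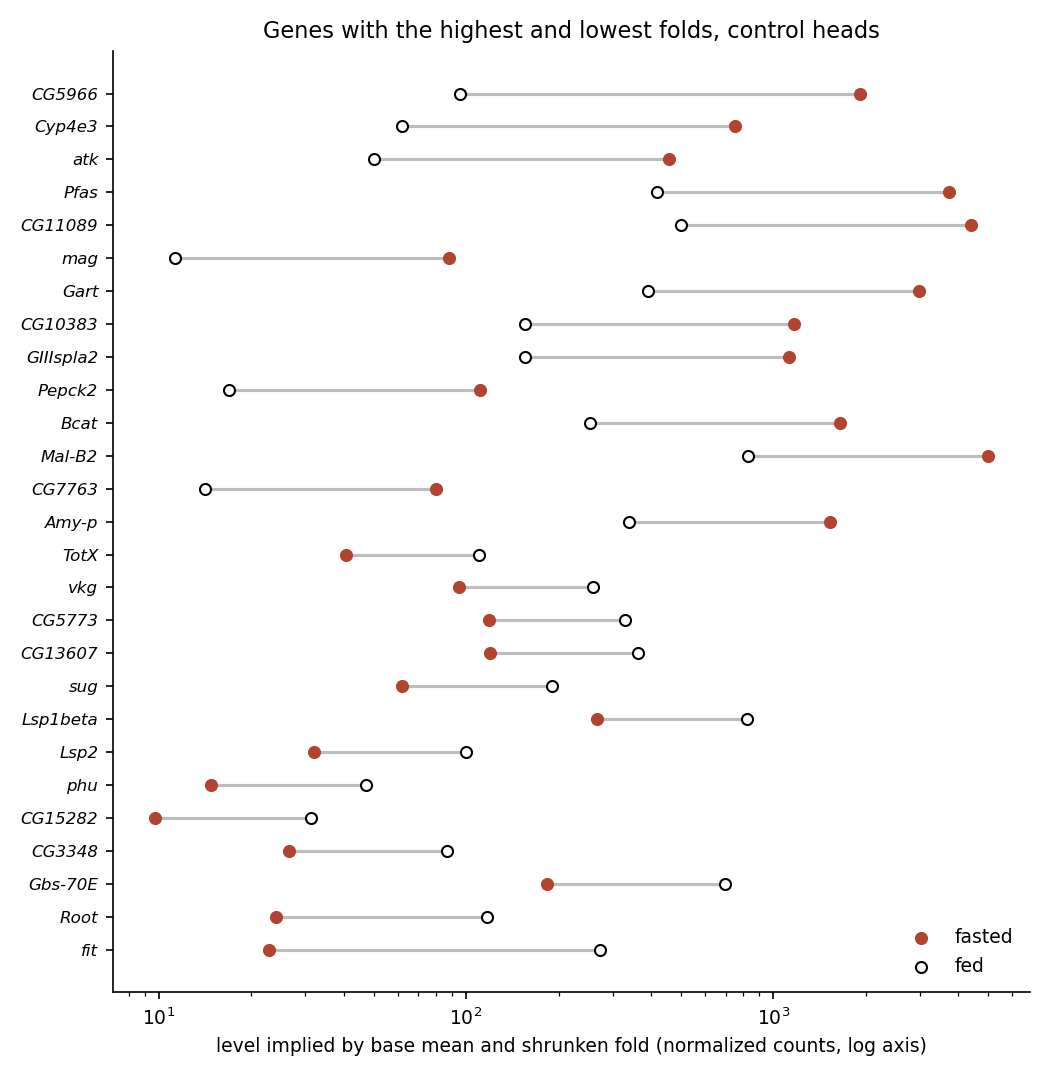
Implied levels in normalized counts (log axis) of fasted heads (red) and fed heads (open circles) for the named genes among the 15 highest and 15 lowest called folds, in order of fold, control heads. CG5966 lies at 1921 in fasted and 95.5 in fed heads, and fit at 22.8 in fasted and 272 in fed heads.

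A list of sugar-responsive genes was put together after the values were seen and therefore supports nothing by its count. It holds transcription factors and their partners, but also genes of other kinds, such as Gbs-70E, named above. Of its 8 tested members 5 were lower, Gbs-70E with the lowest fold among them, and 0 higher. The zinc finger gene sug, induced by dietary sugar in larvae, was at 61.8 normalized counts in fasted heads and 190 in fed heads, a fold of -1.62 ± 0.23 in the authors' deposited table (adjusted p = 2.04e-10). The repressor gene cbt was at 227 in fasted heads and 590 in fed heads, a fold of -1.38 ± 0.17 in the authors' deposited table (adjusted p = 4.65e-13). The sugar sensor gene Mondo had a fold of 0.33 ± 0.16 and its partner bigmax one of 0.75 ± 0.24 in the authors' deposited table, neither of them called.

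Serine synthesis rose as a whole route, with 3 of 3 enzymes called higher and a median fold of 1.78. CG6287, the phosphoglycerate dehydrogenase that takes glycolytic carbon into serine, was at 2283 normalized counts in fasted heads and 974 in fed heads, a fold of 1.23 ± 0.21 in the authors' deposited table (adjusted p = 6.81e-07). The next enzyme, the aminotransferase CG11899, was at 1045 in fasted heads and 291 in fed heads, a fold of 1.85 ± 0.21 in the authors' deposited table (adjusted p = 7.47e-17). The last, the phosphatase aay, was at 3223 in fasted heads and 939 in fed heads, a fold of 1.78 ± 0.15 in the authors' deposited table (adjusted p = 1.66e-30).

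Several enzymes that use or make glycine also rose. Shmt, which splits serine into glycine and a folate-bound carbon, was at 1779 normalized counts in fasted heads and 459 in fed heads, a fold of 1.96 ± 0.21 in the authors' deposited table (adjusted p = 8.03e-19). In the glycine cleavage system the decarboxylase CG3999 rose by 1.28 ± 0.24 and the aminomethyltransferase CG6415 by 0.61 ± 0.20 in the authors' deposited table. The other subunits, ppl and CG7430, had folds of -0.45 ± 0.19 and -0.07 ± 0.16 and were not called in the authors' deposited table. Sardh, which makes glycine from sarcosine, was at 438 in fasted heads and 121 in fed heads, a fold of 1.85 ± 0.19 in the authors' deposited table (adjusted p = 1.44e-20). Gnmt, which runs the opposite step, was at 1459 in fasted heads and 532 in fed heads, a fold of 1.45 ± 0.17 in the authors' deposited table (adjusted p = 5.73e-15).

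Further glycine and serine enzymes were chosen after their values were seen. The serine racemase gene Srr rose by 1.95 ± 0.22, the threonine dehydrogenase gene Tdh by 1.79 ± 0.20, the glyoxylate aminotransferase gene Agxt by 1.56 ± 0.21 and the hydroxyacid oxidase gene Hao by 1.01 ± 0.19 in the authors' deposited table. In the list of 14 glycine, serine, threonine and glyoxylate enzymes that they complete, 12 were higher and 0 lower, and the count supports nothing, since the list was formed from these data.

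In the folate cycle and glycine cleavage list 5 of 12 tested members were higher and 0 lower, with a median fold of 0.405 and 1 fold below 0 at an unadjusted p under 0.05. Nmdmc, the mitochondrial folate dehydrogenase and cyclohydrolase, was at 1223 normalized counts in fasted heads and 309 in fed heads, a fold of 1.98 ± 0.16 in the authors' deposited table (adjusted p = 8.20e-33). Its cytosolic counterpart pug was at 2101 in fasted heads and 782 in fed heads, a fold of 1.43 ± 0.18 in the authors' deposited table (adjusted p = 1.60e-12). Rel, which encodes the immune transcription factor Relish, overlaps Nmdmc on the same strand over 3795 bases, so its fold of 0.81 ± 0.17 in the authors' deposited table may share reads with Nmdmc. The methionine cycle and sarcosine list had 3 of 10 members higher and 0 lower (0 below 0 at an unadjusted p under 0.05), with a median fold of 0.234. The members called were Sardh, Gnmt and Ahcy, which clears S-adenosylhomocysteine with a rise of 1.95 ± 0.22 in the authors' deposited table.

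De novo purine synthesis had 7 of 11 tested members higher and 0 lower (0 below 0 at an unadjusted p under 0.05), with a median fold of 1.07. Prps, which makes the sugar phosphate that starts the route, was at 2752 normalized counts in fasted heads and 1311 in fed heads, a fold of 1.07 ± 0.20 in the authors' deposited table. The committing amidotransferase has 2 genes, of which Prat2 rose by 0.64 ± 0.16 and Prat had a fold of -0.03 ± 0.28 without a call in the authors' deposited table. The trifunctional Gart was at 2985 in fasted heads and 390 in fed heads, a fold of 2.94 ± 0.17 in the authors' deposited table (adjusted p = 6.67e-64).

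Pfas, the next enzyme, was at 3729 normalized counts in fasted heads and 417 in fed heads, a fold of 3.16 ± 0.15 in the authors' deposited table (adjusted p = 5.51e-92). Paics was at 4070 in fasted heads and 935 in fed heads, a fold of 2.12 ± 0.17 in the authors' deposited table (adjusted p = 1.27e-32). Adsl was at 573 in fasted heads and 174 in fed heads, a fold of 1.72 ± 0.17 in the authors' deposited table (adjusted p = 2.57e-20). CG11089, which closes the purine ring, was at 4399 in fasted heads and 500 in fed heads, a fold of 3.14 ± 0.16 in the authors' deposited table (adjusted p = 3.52e-87).

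The enzymes that lead on from the finished ring to adenine and guanine nucleotides were not called. Adss had a fold of 0.45 ± 0.16, ras one of -0.07 ± 0.17 and bur one of 0.04 ± 0.17 in the authors' deposited table. De novo pyrimidine synthesis had 0 of 7 tested members called by DESeq2 (0 at an unadjusted p under 0.05), with a median fold of 0.01 and a range of -0.34 to 0.13. The difference between the purine and the pyrimidine list was not tested.

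**Figure D3:**
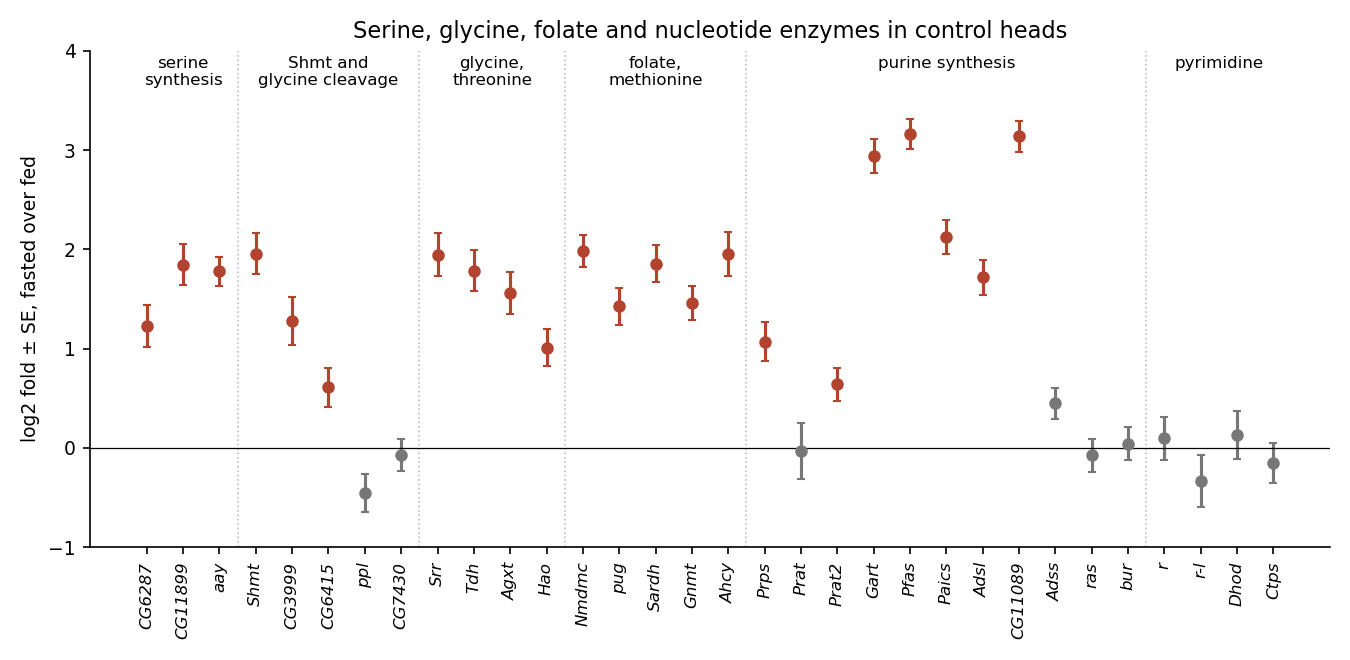
Log2 folds of fasted over fed with their standard errors (bars), as deposited, for enzymes of serine, glycine, folate, methionine, purine and pyrimidine metabolism in control heads. Called genes are red and uncalled ones grey, with Pfas at 3.16 and CG11089 at 3.14 the highest and Adss, ras, bur and the 4 pyrimidine genes shown uncalled.

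Amino acid breakdown had 5 of 25 tested members higher and 0 lower (0 below 0 at an unadjusted p under 0.05), with a median fold of 0.423 and 18 of 25 folds above 0. Bcat, which starts the breakdown of branched-chain amino acids, was at 1648 normalized counts in fasted heads and 253 in fed heads, a fold of 2.71 ± 0.16 in the authors' deposited table (adjusted p = 6.79e-58). Hn and Hpd, enzymes of phenylalanine and tyrosine breakdown, rose by 0.87 ± 0.19 and 0.97 ± 0.20 in the authors' deposited table. Argl, which releases arginine, rose by 0.80 ± 0.21 and the polyamine enzyme gene Odc1 by 0.89 ± 0.24 in the authors' deposited table. Of 23 amino acid and sugar transporters, the citrate carrier gene Indy was the 1 called, higher by 0.64 ± 0.17 in the authors' deposited table. That called share, 4.35%, is near the 3.84% of all tested genes, while for amino acid breakdown it was 20%.

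Of 12 tested insulin-like peptides and secreted modulators of insulin, 2 were called higher, 1 lower and 9 not, and the uncalled ones include both peptides and modulators. Lst, which encodes a peptide that restrains insulin secretion, was at 844 normalized counts in fasted heads and 215 in fed heads, a fold of 1.98 ± 0.20 in the authors' deposited table (adjusted p = 5.35e-20). ImpL2, whose product binds insulin-like peptides, was at 894 in fasted heads and 408 in fed heads, a fold of 1.13 ± 0.19 in the authors' deposited table (adjusted p = 2.84e-07). CCHa2, a nutrient-dependent peptide known to promote insulin-like peptide output in larvae, was at 220 in fasted heads and 574 in fed heads, a fold of -1.39 ± 0.18 in the authors' deposited table (adjusted p = 1.29e-12). The brain peptides Ilp2, Ilp3 and Ilp5 had folds of 0.02 ± 0.18, -0.15 ± 0.23 and -0.68 ± 0.28, and the fat body peptide Ilp6 one of -0.24 ± 0.21, none of them called in the authors' deposited table.

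Downstream, 2 of 25 tested members of insulin, FOXO and TOR signalling were higher and 0 lower (0 below 0 at an unadjusted p under 0.05), with a median fold of 0.142. Thor, the 4E-BP that holds back cap-dependent translation, was at 2304 normalized counts in fasted heads and 884 in fed heads, a fold of 1.38 ± 0.17 in the authors' deposited table (adjusted p = 1.41e-13). Sesn, a sestrin that restrains TOR, rose by 0.75 ± 0.17 in the authors' deposited table (adjusted p = 0.000811). Both are also on the ATF4 and unfolded protein list, where 3 of 16 members were higher and 0 lower (0 below 0 at an unadjusted p under 0.05), the other being trbl at 0.96 ± 0.22 in the authors' deposited table.

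The lists of translation and protein turnover genes that follow had 0 members called, beside 3.84% of all tested genes. Outside these lists, genes of such processes were called, among them Thor, given above, and the cathepsin gene CtsL1. Of 75 tested cytosolic ribosomal protein genes DESeq2 called 0 (6 at an unadjusted p under 0.05, all above 0), yet 74 folds were above 0, with a median of 0.294. Of 34 proteasome genes 0 were called (0 at an unadjusted p under 0.05), with 32 folds above 0 and a median of 0.138. Against these, 70 mitochondrial ribosomal protein genes had a median of -0.01, 30 aminoacyl-tRNA synthetase genes one of -0.02 and 24 ribosome biogenesis genes one of -0.04, with 0 called in each (0 at an unadjusted p under 0.05 in each). Autophagy and V-ATPase genes had 0 of 37 called (5 at an unadjusted p under 0.05, all above 0), and the nearest was Atg2, with a fold of 0.51 ± 0.16 and an adjusted p of 0.0528 in the authors' deposited table.

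**Figure D4:**
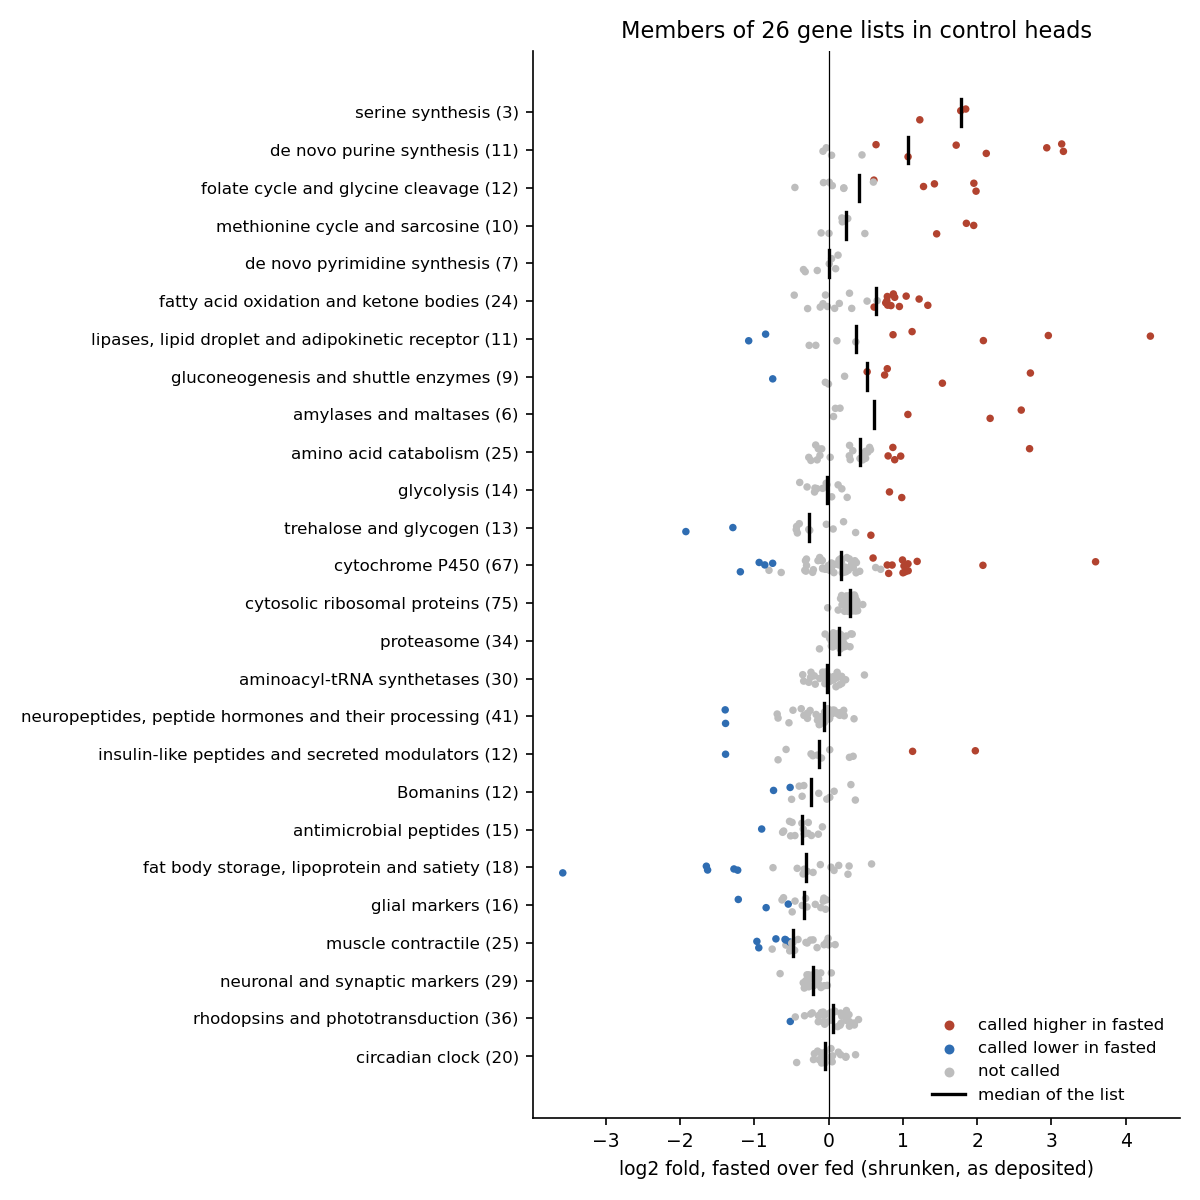
Log2 folds of fasted over fed (horizontal axis, shrunken, as deposited) of the tested members of 26 gene lists in control heads, with the number tested in brackets, called members in red (higher) or blue (lower), uncalled ones in grey and the median as a black bar. Serine synthesis (median 1.78) and purine synthesis (1.07) lie furthest right, and muscle genes (-0.476) furthest left.

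Some storage and secreted products of the fat body were lower. Of 18 tested members of the list of fat body storage, lipoprotein and satiety genes, 5 fell, 13 were not called and 0 rose (1 fold above 0 at an unadjusted p under 0.05), with a median fold of -0.308. With recentred folds, or with the adjustment limited to base means from 50, 1 member was called higher, CG6770, named here after its values were seen. The satiety peptide gene fit (chromosome 3R, 21883924 to 21884454, minus strand, in BDGP6.54) was at 22.8 normalized counts in fasted heads and 272 in fed heads, a fold of -3.58 ± 0.27 in the authors' deposited table (adjusted p = 1.55e-38). The lipoprotein gene apolpp had the largest fall in counts, with 5344 in fasted heads and 12469 in fed heads, and a fold of -1.22 ± 0.20 in the authors' deposited table (adjusted p = 2.01e-07). The storage protein genes Lsp2 and Lsp1beta had folds of -1.64 ± 0.28 for Lsp2 and -1.63 ± 0.17 for Lsp1beta in the authors' deposited table. The odorant-binding protein gene Obp99b was at 491 in fasted heads and 1187 in fed heads, a fold of -1.27 ± 0.16 in the authors' deposited table. It was the 1 called of 22 odorant-binding protein genes, a share of 4.55%, near the 3.84% of all tested genes. In whole heads, fewer cells of a type and less RNA per cell cannot be told apart, here and in every group below.

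Several secreted immune genes were lower. Antimicrobial peptide genes had 1 of 15 tested members lower and 0 higher (0 above 0 at an unadjusted p under 0.05), and all 15 folds were below 0, with a median of -0.359. The called member was Drsl4 at -0.90 ± 0.24 in the authors' deposited table. Bomanins, short secreted immune peptides, had 2 of 12 lower and 0 higher (1 above 0 at an unadjusted p under 0.05). BomS1 was at 825 normalized counts in fasted heads and 1378 in fed heads, a fold of -0.74 ± 0.18 in the authors' deposited table, and BomBc2 had a fold of -0.52 ± 0.15 in the same authors' deposited table. Among 21 recognition proteins and regulators (14.3% called, against 3.84% of all tested genes), PGRP-SB1 fell at -1.42 ± 0.23 and PGRP-SD at -0.85 ± 0.18 in the authors' deposited table. Rel was the 1 called higher, and its fold may share reads with Nmdmc, as said above. The stress peptide gene TotX fell at -1.44 ± 0.25 in the authors' deposited table, 1 of 4 tested Turandot genes.

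Muscle contractile genes had 6 of 25 tested members lower and 0 higher (0 above 0 at an unadjusted p under 0.05), 23 folds below 0 and a median of -0.476. The myosin light chain gene Mlc2 was at 1416 normalized counts in fasted heads and 2762 in fed heads, a fold of -0.96 ± 0.16 in the authors' deposited table (adjusted p = 1.75e-07). The myosin heavy chain gene Mhc was at 3247 in fasted heads and 5305 in fed heads, a fold of -0.71 ± 0.17 in the authors' deposited table (adjusted p = 0.00161). Act57B, Prm and Mlp60A fell as well, at -0.59, -0.57 and -0.94 in the authors' deposited table. The calcium pump gene SERCA, chosen after its values were seen, fell at -0.78 ± 0.16 in the authors' deposited table.

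Glial markers had 3 of 16 tested members lower and 0 higher (0 above 0 at an unadjusted p under 0.05), with all 16 folds below 0 and a median of -0.331. CG6126, a transporter gene, was at 171 normalized counts in fasted heads and 398 in fed heads, a fold of -1.21 ± 0.18 in the authors' deposited table (adjusted p = 2.81e-09). Mdr65, a pump of the blood-brain barrier, fell at -0.84 ± 0.18 and the midline glia gene wrapper at -0.54 ± 0.17 in the authors' deposited table. Neuronal and synaptic markers had 0 of 29 called by DESeq2 (1 at an unadjusted p under 0.05), but 28 folds lay below 0, with a median of -0.206. Photoreceptor markers had 0 of 13 called (0 at an unadjusted p under 0.05), with 11 folds above 0 and a median of 0.219. Whether the shares of eye and brain RNA differed between fasted and fed heads, and what part that had in the folds of muscle, glial and fat body genes, was not tested.

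A list of basement membrane and blood cell matrix genes, formed after the values were seen, had 6 of 13 tested members lower and 2 higher. The type IV collagen genes vkg and Col4a1 lie head to head, 1417 bases apart on chromosome 2L. vkg was at 95.1 normalized counts in fasted heads and 260 in fed heads, a fold of -1.45 ± 0.20 in the authors' deposited table (adjusted p = 3.50e-11). Col4a1 was at 142 in fasted heads and 380 in fed heads, a fold of -1.42 ± 0.18 in the authors' deposited table (adjusted p = 1.58e-12). The laminin gene LanB2 fell at -0.82 ± 0.23, the integrin ligand gene Tig at -1.15 ± 0.20 and the blood cell clotting gene Hml at -1.23 ± 0.25 in the authors' deposited table. The laminin alpha gene wb rose by 1.46 ± 0.22 and SPARC, a collagen-binding protein gene, had a fold of 0.09 ± 0.21 in the authors' deposited table. Of 5 blood cell markers, Hml and Ppn were called lower and Pxn, NimC1 and eater were not, with all 5 folds below 0.

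Cytochrome P450 genes, whose products oxidise hormones, fatty acids and foreign compounds, had 13 of 67 tested members higher and 4 lower, with a median fold of 0.163. Cyp4e3 was at 749 normalized counts in fasted heads and 62.0 in fed heads, a fold of 3.59 ± 0.19 in the authors' deposited table (adjusted p = 9.30e-73). Cyp6a8 was at 116 in fasted heads and 27.5 in fed heads, a fold of 2.08 ± 0.25 in the authors' deposited table. Cyp6w1 and Cyp4e2 rose by 1.19 ± 0.17 and 1.07 ± 0.19, and Cyp313a1 fell at -1.19 ± 0.20, in the authors' deposited table. Of the conjugating enzymes, 4.17% of 48 glutathione and UDP-glycosyl transferase genes were called, near the 3.84% of all tested genes. Among the 48, 1 was higher and 1 lower. These were GstT4 at 0.93 ± 0.18, the neighbour of Bcat, and Ugt37A3 at -0.95 ± 0.28 in the authors' deposited table.

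The list of neuropeptides, peptide hormones and genes of their processing had 0 of 41 tested members higher (0 above 0 at an unadjusted p under 0.05). The 2 called lower were CCHa2 and Nplp3. That called share, 4.88%, is near the 3.84% of all tested genes. Nplp3 was at 615 normalized counts in fasted heads and 1613 in fed heads, a fold of -1.39 ± 0.18 in the authors' deposited table (adjusted p = 7.23e-13). Of 14 sex determination and sex-biased genes, fit, sxe2 and Cyp4d21 fell, with sxe2 at -1.43 ± 0.16 and Cyp4d21 at -0.75 ± 0.21 in the authors' deposited table. In the juvenile hormone and ecdysone list, Jheh1 rose by 0.76 ± 0.17 and Jhe fell at -0.89 ± 0.28 from a base mean of 14.2, both enzymes that degrade juvenile hormone, in the authors' deposited table. Cuticle proteins had 3 of 27 lower and 0 higher (2 above 0 at an unadjusted p under 0.05).

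In several systems of the head the calls were few in number, beside 3.84% of all tested genes called. Genes induced by neuronal activity (12.5%) and eye pigment genes (10%) had larger called shares. Antioxidant (4.35%) and phototransduction genes (2.78%) had similar ones, and oxidative phosphorylation (1.54%) and long noncoding RNAs (0.395%) smaller ones. For a list of 20 genes, 0 calls are not far from the share over all genes. The circadian clock had 0 of 20 genes called by DESeq2 (0 at an unadjusted p under 0.05), with per at 0.36 ± 0.20 and Clk at -0.43 ± 0.24 in the authors' deposited table. Heat shock genes had 0 of 20 called (4 at an unadjusted p under 0.05), with the highest fold at Hsp26, 0.68 ± 0.24 in the authors' deposited table. Of 36 tested phototransduction genes, ninaB, which makes retinal, was the 1 called, at -0.51 ± 0.16 in the authors' deposited table. It overlaps Adgf-D, an adenosine deaminase gene on the opposite strand that rose by 1.29 ± 0.22 in the authors' deposited table. Eye pigment genes had 1 of 20 higher (Hn) and 1 lower, the pteridine enzyme gene Pu at -0.70 ± 0.15 in the authors' deposited table. Antioxidant and glutathione genes had 1 of 23 lower, Sod3 at -0.69 ± 0.19 in the authors' deposited table, and 0 higher (3 above 0 at an unadjusted p under 0.05). Of 16 genes induced by neuronal activity, 1 was higher and 1, cbt, lower. The higher one was Thor, already counted above under insulin, FOXO and TOR signalling and under ATF4. Oxidative phosphorylation had 1 of 65 lower and 0 higher (0 above 0 at an unadjusted p under 0.05). Among 253 tested long noncoding RNAs the 1 called was lncRNA:Irar, higher by 1.00 ± 0.28 from a low base mean, 11.4, in the authors' deposited table.

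Some of the called genes overlap each other, and the sources used here do not say whether reads were counted by strand. Of 349 called genes with a position, 10 (2.87%) overlapped another called gene, while 1.13% of the uncalled genes overlapped a called one. The acid lipase gene mag and the larger atk share 1592 bases on opposite strands, and atk rose by 3.19 ± 0.23 in the authors' deposited table. Root, a ciliary rootlet gene, fell at -2.28 ± 0.25 and CG13607, which lies within it on the opposite strand, at -1.59 ± 0.23 in the authors' deposited table. For both pairs the reads of the partners cannot be told apart without strand. Of 9171 pairs of adjacent tested genes, 33 (0.36%) were called in both members, 28 of them without overlap. In 20 of the 28 (71.4%) both genes moved in the same direction, while the folds shared a sign in 53.5% of all 7476 adjacent tested pairs without overlap. The difference between these shares was not tested. Grip and CG5966 both rose, Grip by 1.26 ± 0.23 in the authors' deposited table, while Lst and Cdk4 moved in opposite directions. Of the chromosomes, 2R had 2.93% of its 1878 tested genes higher and 1.76% lower, and X had 1.71% of 1518 higher and 0.922% lower.

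Of the rises in control heads, 121 of 198 were also called in Crtc knockout heads, and of the falls, 29 of 151. In knockout heads, 277 of 10037 tested genes (2.76%) were called higher and 50 (0.498%) lower in the authors' deposited table. Counting genes whose base mean reached 10 in each table, 198 were higher in fasted control heads, and 121 of these (61.1%) were called higher in knockout heads too. Their median fold was 0.93 in knockout and 0.90 in control heads. Another 151 were lower in fasted control heads, and 29 of these (19.2%) were called lower in knockout heads, with a median fold of -0.28 in knockout and -0.89 in control heads. The 2 tables share no library, and the genes were chosen by their control folds, a choice that favours large folds in control heads.

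The difference of response, knockout minus control, was tested for 8474 genes with a normal test on the folds and standard errors of both tables, adjusted over all of them, and 68 (0.802%) differed, 59 with a positive and 9 with a negative difference. Among the control calls, 13 of the higher genes differed, 7 with a positive and 6 with a negative difference. Of the lower genes, 25 differed with a positive difference and 0 with a negative one. These genes were selected for a fall in control heads, a choice that by itself favours positive differences. The folds of the 2 comparisons were fitted separately, and shrinkage is stronger at low counts. Base means could be far apart: Pepck2 had 54.8 in control and 1034 in knockout heads, and Cyp4e3 337 in control and 3946 in knockout heads. Pfas had 1742 in control and 329 in knockout heads. What part unequal shrinkage has in the differences was not tested.

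The 6 rises of control heads that were smaller in knockout heads fell in purine, sarcosine, hormone and lipid phosphate genes. Pfas had a fold of 0.56 ± 0.21 in knockout heads against 3.16 ± 0.15 in control heads in the authors' deposited tables, a difference of -2.60. Lst had 0.13 ± 0.27 in knockout heads and 1.98 ± 0.20 in control heads, and ImpL2 -0.45 ± 0.21 in knockout heads and 1.13 ± 0.19 in control heads, in the authors' deposited tables. The differences were -1.85 and -1.58 (adjusted p = 2.04e-05 and 1.29e-05). Sardh, Adsl and CG11425 had differences of -1.42, -1.38 and -1.27. For other purine enzymes the test gave no call. Gart had folds of 2.63 ± 0.26 in knockout and 2.94 ± 0.17 in control heads, and CG11089 2.87 ± 0.19 in knockout and 3.14 ± 0.16 in control heads, in the authors' deposited tables.

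Falls that were present in control heads and smaller or opposite in knockout heads included hormone, glycogen and immune genes. Gbs-70E had a fold of -0.12 ± 0.20 in knockout heads and -1.92 ± 0.20 in control heads in the authors' deposited tables, a difference of 1.80 (adjusted p = 1.67e-07). CCHa2 had 0.65 ± 0.24 in knockout and -1.39 ± 0.18 in control heads, and sug 0.01 ± 0.23 in knockout and -1.62 ± 0.23 in control heads, in the authors' deposited tables. BomS1 had 1.18 ± 0.22 in knockout and -0.74 ± 0.18 in control heads in the authors' deposited tables, called higher in knockout and lower in control heads. Lsd-1 had 0.96 ± 0.31 in knockout and -0.85 ± 0.24 in control heads in the authors' deposited tables, a difference of 1.81 (adjusted p = 0.00107). For fit the fold was -1.43 ± 0.27 in knockout and -3.58 ± 0.27 in control heads in the authors' deposited tables, called lower in both.

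Some rises were larger in knockout heads. Cyp4e3 had a fold of 6.73 ± 0.19 in knockout and 3.59 ± 0.19 in control heads in the authors' deposited tables, a difference of 3.14 (adjusted p = 3.74e-27). Pepck2 had 3.99 ± 0.18 in knockout and 2.72 ± 0.26 in control heads, CROT 2.10 ± 0.20 in knockout and 0.95 ± 0.20 in control heads, and Thor 2.30 ± 0.17 in knockout and 1.38 ± 0.17 in control heads, in the authors' deposited tables. AkhR, not called in control heads, had 1.01 ± 0.21 in knockout and -0.26 ± 0.21 in control heads, and Ilp6 1.06 ± 0.24 in knockout and -0.24 ± 0.21 in control heads, in the authors' deposited tables.

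**Figure D5:**
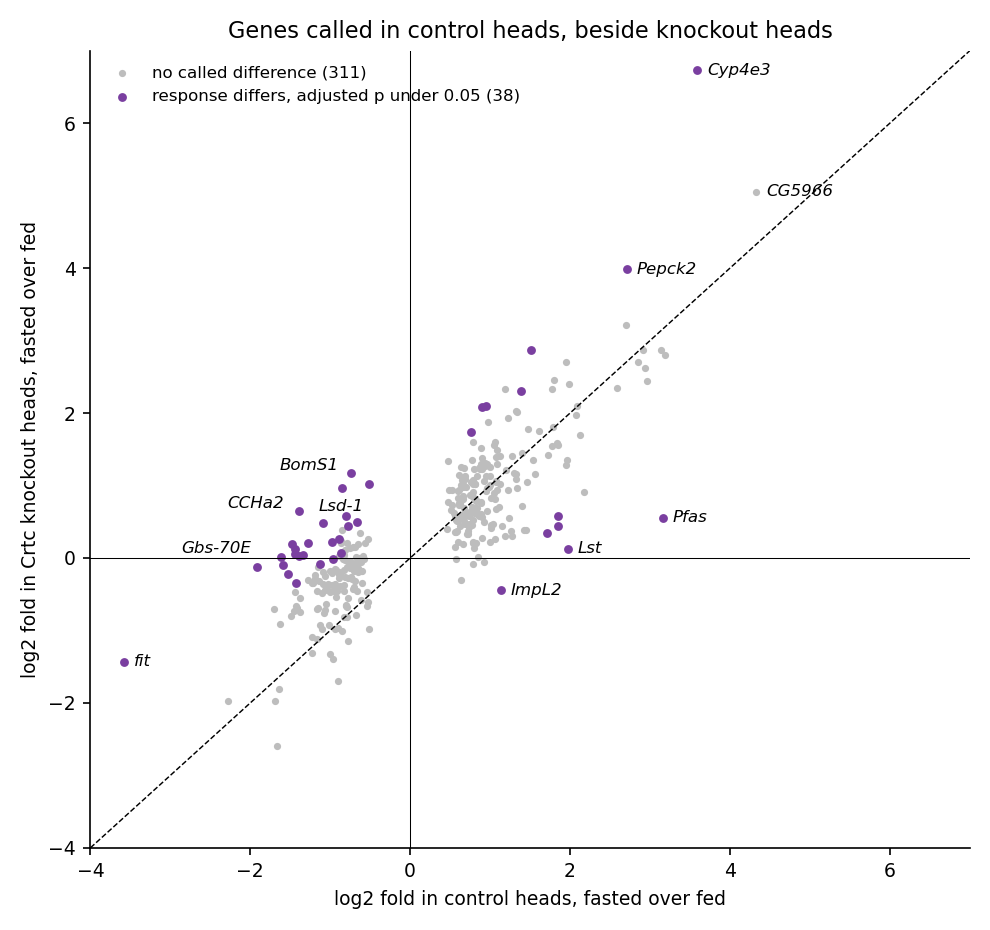
Log2 fold of fasted over fed in Crtc knockout heads (vertical axis) against control heads (horizontal axis), as deposited, for the 349 genes called in control heads whose base mean reached 10 in each table. Purple marks the 38 genes whose responses differ, such as Pfas (0.56 in knockout, 3.16 in control), the dashed line marks equal folds, and the lower calls of control heads have a median of -0.28 in knockout heads.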

How the data were processed

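Per the submitters' processing notes, TopHat2, STAR, Cuffdiff and DESeq2 were used with the builds dm3 and dm6. The aligner and build used for these tables are not stated in the sources used here. The authors deposited a base mean, a signal averaged over the libraries of a comparison, with log2 folds and their standard errors on the log2 scale. The deposited Wald score equals fold over standard error. The deposited p-values follow from it, and adjusted p-values are those of the authors' DESeq2 run. No standard error exceeds 0.285, the form that the authors' DESeq2 run gives with a normal prior, so the folds are shrunken. The labels number the libraries otherwise than the tables' names do.

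Depth per library is unknown. Base means sum to 4087577 normalized counts, and counting error is part of the standard errors. Symbols (17253 of 17559 identifiers) and positions, 1-based, come from Ensembl release 115, BDGP6.54. Implied levels used 2 fasted and 3 fed libraries. The difference of response was divided by the root of the summed squared standard errors, and its two-sided normal p was adjusted (Benjamini-Hochberg) over genes whose base mean reached 10 in each table (Python 3.11.15, scipy 1.17.1). Of 4 tables, 2 were used.

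Genes and lists were chosen with earlier results of these data known: 48 lists at first, 3 after the values were seen, and 5 lists of cell type markers. Named genes are the 15 highest and 15 lowest called folds, up to 5 called members of each list or, with fewer than 2 called, up to 2 members with the largest scores, Crtc and its partners, up to 8 genes differing from knockout heads in each direction, and well-known members of the lists. Genes named as neighbours or overlapping partners were chosen after their values were seen. Identifiers without a symbol (10 called) are counted only. Alternatives were a stricter threshold, other adjustments, filters, centring and reference distributions.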

Additional observations from a re-analysis of the deposited data

Results flagged for a closer look

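These genes were marked because the fasting response in knockout heads minus that in control heads passed the normal test of the difference itself, adjusted over 8474 genes. All differences are on the log2 scale. Negative differences were found for Pfas (-2.60), Lst (-1.85), ImpL2 (-1.58), Sardh (-1.42), Adsl (-1.38) and CG11425 (-1.27), which were called higher in fasted control heads and not called in knockout heads. Among genes that rose in control heads, Cyp4e3 (3.14), Pepck2 (1.27), CROT (1.15), Jheh1 (0.98) and Thor (0.92) rose more in knockout heads. Among genes that fell in control heads, positive differences were found for fit (2.15), CCHa2 (2.03), BomS1 (1.92), Lsd-1 (1.81), Gbs-70E (1.80), sug (1.63), BomBc2 (1.53), CG13607 (1.49), Obp99b (1.48), Nplp3 (1.42), sxe2 (1.09) and Mlc2 (0.95). Ilp6 (1.29) and AkhR (1.27) differed without a call in control heads and were called higher in knockout heads.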

How the results depend on the processing

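The table holds no value per library, so leaving out a library was not run. No paired analysis was possible because the tables give no value per library to which a replicate number could be attached. With a t distribution of 3 degrees of freedom in place of the normal, 0 genes were called higher and 0 lower (342 at an unadjusted p under 0.05, with 0.655 the smallest adjusted p). With 6 degrees of freedom for the difference from knockout heads, 0 were positive and 0 negative (190 at an unadjusted p under 0.05, with 0.108 the smallest adjusted p). These distributions ignore that DESeq2 shares its spread across genes. Requiring a log2 fold of at least 1 left 85 higher and 60 lower genes. The other settings stayed within 1.5 times: 154 higher and 112 lower at an adjusted p under 0.01, 186 and 142 adjusted over all genes with a p-value, 210 and 155 for base means from 10, 202 and 156 for base means from 50, 221 and 146 with recentred folds, and 252 and 210 with scores divided by their central spread of 0.911. For the difference, 44 were positive and 6 negative at 0.01. Of 147 genes named by the rule, 14 lost their call at 0.01 and 4 when adjusted over all genes. With recentred folds 3 lost it (ninaB, Jhe and wrapper), while CG7888 and Atg2 gained one. The direction of these genes was not tested. The first 2 settings leave each fold as it is, and recentring only takes the median of -0.02 off every fold. Over the 48 lists, the count of called members in a direction moved by over 1.5 times for 9 counts at 0.01, 2 when adjusted over all genes, 8 for base means from 50 and 6 with recentred folds. At 0.01 these were higher calls in lipid synthesis (0, against 3) and long noncoding RNAs (0, against 1), and lower calls in cytochrome P450 (2, against 4), lipases (1, against 2), Bomanins (1, against 2), and oxidative phosphorylation, transferases, phototransduction and juvenile hormone genes (0, against 1 in each).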

Other observations

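Genes outside the lists, chosen after their values were seen, also rose in fasted control heads. The galactokinase gene Galk rose by 0.90 ± 0.18 and the phosphoglucomutase gene Pgm2a by 0.92 ± 0.21 in the authors' deposited table. SCOT, which returns ketone bodies to acetyl-CoA, rose by 0.94 ± 0.21, and the succinyl-CoA synthetase genes Scsalpha1 and ScsbetaA by 0.59 ± 0.15 and 0.56 ± 0.14, in the authors' deposited table. The glutamine synthetase gene Gs1 rose by 0.68 ± 0.15 and the proline synthesis gene P5CS by 0.62 ± 0.17 in the authors' deposited table. The cathepsin genes CtsB and CtsL1 rose by 0.79 ± 0.16 and 0.74 ± 0.15 in the authors' deposited table, while the autophagy list had 0 of 37 members called by DESeq2 (5 at an unadjusted p under 0.05). Lpin and mino, enzymes of glycerolipid synthesis, rose by 0.62 ± 0.16 and 0.90 ± 0.15, and Pdk, which shuts off pyruvate entry to the citric acid cycle, by 0.49 ± 0.16, in the authors' deposited table. Among falls, the juvenile hormone binding protein genes Jhbp1, Jhbp3 and Jhbp14 fell at -0.65 ± 0.18, -0.72 ± 0.18 and, for Jhbp14, -0.67 ± 0.18 in the authors' deposited table.

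The labels do not give the sex of the flies. The yolk protein genes Yp1 and Yp2, made by adult females, had base means of 1.05 and 2.90 in the authors' deposited table, and Yp3 one of 178. The dosage compensation RNAs of males, lncRNA:roX1 and lncRNA:roX2, had base means of 9919 and 671 in the authors' deposited table. Yp1 and Yp2 had no adjusted p and were not tested, and Yp3, lncRNA:roX1 and lncRNA:roX2 were tested and not called.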
